A study of Mus musculus with 12 samples.

Results

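The genes described here are 10 genes of the Nodal pathway and of mesendoderm, the tissue that gives rise to mesoderm and endoderm: *Eomes*, *T*, *Mixl1*, *Gsc*, *Nodal*, *Lefty1*, *Lefty2*, *Tdgf1*, *Cer1* and *Fgf8*. They were taken by symbol, 10 of the 24627 genes in the count tables. They were selected on the measured levels of these genes in the same libraries, with *Eomes* first, and which comparison led to the choice is not recorded. The values of *Eomes* in every comparison are therefore given as a description. Where a count of calls includes *Eomes*, its call is named but supports nothing. Of the 10 genes, 8 passed the filter on low counts and were tested, while *Gsc* and *Cer1* were too low and are given as counts.

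The data were RNA-seq counts from 12 libraries of mouse XY embryonic stem (ES) cells of the J1 background, at day 2 of differentiation by LIF withdrawal. In all 3 lines the endogenous *Xist* gene, which makes the RNA that silences the X chromosome, stood under a TetO promoter that doxycycline (DOX) switches on. *Xist* FL carried full-length *Xist*, *Xist* ΔA lacked the A repeat, which is needed for silencing, and *Xist* ΔB+C lacked the B and C repeats, through which Polycomb complexes are recruited. Each line is a single one, so a deletion cannot be told apart from other differences between lines, and the cells are male, so *Xist* acts on their only X chromosome. By the paper's methods, *Xist* ΔB+C was made from the *Xist* FL line by genome editing. *Xist* ΔA was a line from earlier work and is not listed among those made from *Xist* FL. Each line was differentiated with DOX at 1.5 μg/ml or without it (noDOX), with 2 libraries per group. The libraries started from 1 μg of RNA, except *Xist* ΔB+C DOX replicate 2, a low-input library from 100 ng. The paper calls the 2 libraries of a group biological duplicates. Nothing in the labels says how far these were separated, so p-values measure the spread between these libraries only. Totals ran from 31337490 to 41240470 counts per library. Levels are in CPM, counts scaled to the size of the library. *Xist* itself averaged 2.74 CPM without and 888 CPM with DOX in the FL line, 7.31 and 646 CPM in the ΔA line and 2.52 and 1475 CPM in the ΔB+C line. *Pou5f1*, a defining pluripotency gene, stood between 1149 and 1811 CPM in all 12 libraries and *Nanog* between 86.0 and 203 CPM.

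Nodal is a secreted ligand of the TGF-β family. It acts through activin receptors together with the membrane co-receptor Tdgf1 (Cripto), and the signal reaches the nucleus through Smad2 and Smad3 with Foxh1. Lefty1, Lefty2 and Cer1 are secreted inhibitors of the pathway, and the 2 Lefty genes are themselves targets of Nodal, which gives the pathway a negative feedback. In the early embryo, Nodal and Wnt signals from the epiblast switch on the primitive streak genes: the T-box factors Eomes and T (Brachyury), the homeobox factors Mixl1 and Gsc, and the growth factor Fgf8. ES cells that leave self-renewal pass through an epiblast-like state that can start this programme. Eomes is also a factor of the trophoblast lineage.

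The promoters of the genes are shown because the question was whether they move together, and their sequences can be read side by side. The table of RefSeq promoters (build GRCm38.p6, 300 bases around the annotated start) held 6 of the 10 genes, and 4 are printed, 5′ to 3′ on the gene's own strand. They belong to *Eomes* and *T*, the 2 T-box factors, and to *Nodal* and *Tdgf1*, the ligand and its co-receptor. Capitals mark a match, on either strand, to one of 4 motifs searched: the T-box core GGTGTG, the FOXH1 motif AATCCACA, the TCF/LEF core CTTTGA and the SMAD core CAGAC.
Eomes promoter, chr9:118477939-118478238, plus strand: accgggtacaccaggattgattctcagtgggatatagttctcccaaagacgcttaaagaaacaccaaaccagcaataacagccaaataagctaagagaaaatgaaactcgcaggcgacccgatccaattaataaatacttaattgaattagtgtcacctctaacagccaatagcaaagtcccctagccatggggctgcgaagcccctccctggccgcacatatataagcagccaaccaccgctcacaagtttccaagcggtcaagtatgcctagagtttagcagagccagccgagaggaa
T promoter, chr17:8434173-8434472, plus strand: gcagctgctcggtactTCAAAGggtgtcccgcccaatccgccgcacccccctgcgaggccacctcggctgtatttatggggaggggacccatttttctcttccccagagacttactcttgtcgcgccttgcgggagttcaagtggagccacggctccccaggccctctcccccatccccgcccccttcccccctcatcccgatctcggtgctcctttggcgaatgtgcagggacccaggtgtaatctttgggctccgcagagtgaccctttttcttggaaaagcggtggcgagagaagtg
Nodal promoter, chr10:61417722-61418021, plus strand: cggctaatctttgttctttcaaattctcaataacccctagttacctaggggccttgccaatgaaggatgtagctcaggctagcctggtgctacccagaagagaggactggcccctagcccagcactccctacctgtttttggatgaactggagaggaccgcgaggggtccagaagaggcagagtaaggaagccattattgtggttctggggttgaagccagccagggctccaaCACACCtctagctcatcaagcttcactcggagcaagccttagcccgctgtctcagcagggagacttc
Tdgf1 promoter, chr9:110946109-110946408, minus strand: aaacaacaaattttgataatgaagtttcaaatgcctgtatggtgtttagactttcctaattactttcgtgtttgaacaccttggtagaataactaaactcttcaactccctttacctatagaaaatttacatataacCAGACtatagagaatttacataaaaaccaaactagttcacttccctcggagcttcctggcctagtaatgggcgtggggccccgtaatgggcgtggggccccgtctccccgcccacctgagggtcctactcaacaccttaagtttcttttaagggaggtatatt
No 2 of the 4 windows shared a motif. *Nodal* held a T-box core on the minus strand of the gene at position -17 from the start, *T* a TCF/LEF core on its minus strand at -234, and *Tdgf1* a SMAD core on its plus strand at -113. *Eomes* held none of the 4. Of the 2 windows not printed, *Cer1* held a SMAD core at -213 and *Gsc* held none. Over all 32851 promoters of the table, 19% held the T-box core, 0.855% the FOXH1 motif, 16% the TCF/LEF core and 49.6% the SMAD core, so a match is common except for FOXH1.

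*Eomes* lies on chromosome 9 (mm10, 118478212 to 118486132, plus strand) and *T* on chromosome 17 (8434423 to 8442496, plus strand). *Mixl1* (180693043 to 180697034, minus strand), *Lefty2* (180893108 to 180899103, plus strand) and *Lefty1* (180935022 to 180938400, plus strand) are close together on chromosome 1. *Nodal* lies on chromosome 10 (61417972 to 61425338, plus strand), *Tdgf1* on chromosome 9 (110939603 to 110946158, minus strand) and *Fgf8* on chromosome 19 (45736798 to 45742915, minus strand). *Gsc* is on chromosome 12 (104471209 to 104473330, minus strand) and *Cer1* on chromosome 4 (82881751 to 82885148, minus strand). None of the 10 is X-linked. Of all 100-base windows of the annotated transcripts, 5.85% of those of *Lefty1* and 3.86% of those of *Lefty2* were identical between these 2 genes, and 3.17% of those of *Tdgf1* were identical to the pseudogene *Tdgf1-ps1*, so a small part of their reads could be split between copies. *Eomes* shared 0.481% with *Gm33460*, a gene on the opposite strand, and the counting options given name no strand setting, so reads from the overlap cannot be assigned to either gene with certainty.

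Per kilobase of exon, *Tdgf1* had the highest mean level over the 12 libraries, 219.6 CPM per kb, followed by *Nodal* at 53.4, *Lefty1* at 31.5, *T* at 26.0 and *Lefty2* at 15.7 CPM per kb. *Eomes* reached 8.84, *Fgf8* 7.50 and *Mixl1* 3.01 CPM per kb, while *Gsc* (0.531) and *Cer1* (0.0354) were hardly read. The co-receptor and the ligand were thus the most abundant RNAs of the group. Among the streak genes, *T* stood above *Lefty2* and the others below it.

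**Figure D1:**
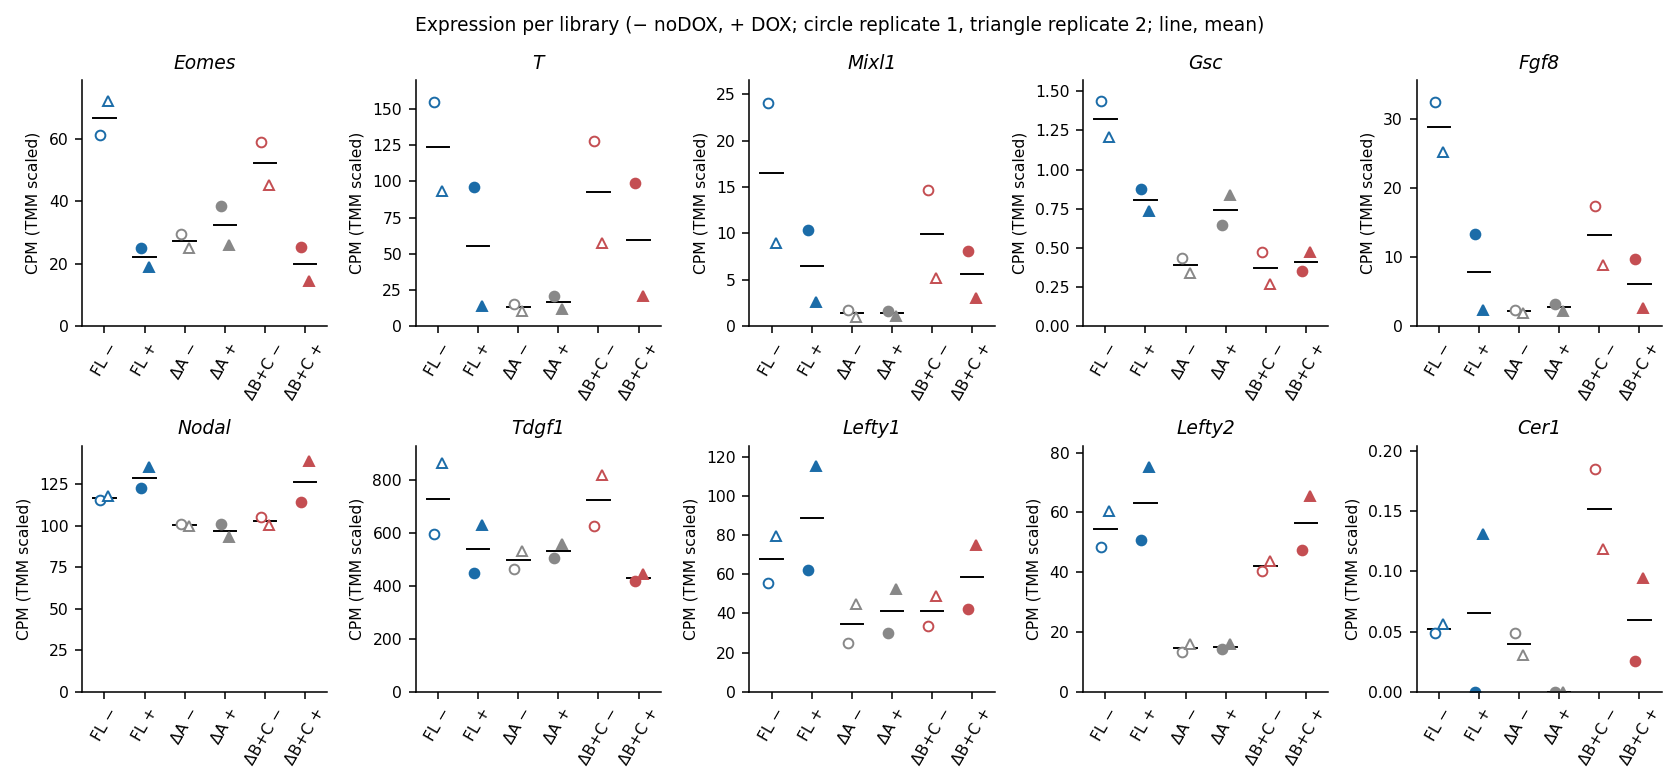
Level of each of the 10 genes in each library, in TMM-scaled CPM on linear axes that start at 0, by line without (−) and with (+) DOX. Circles are replicate 1, triangles replicate 2 and bars the mean of 2; *Eomes* was between 14.4 and 25.5 CPM in the 4 DOX libraries of *Xist* FL and *Xist* ΔB+C and between 45.2 and 72.1 CPM in their noDOX libraries.

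*Eomes* was lower with DOX in the *Xist* FL and ΔB+C lines and overlapped between treatments in *Xist* ΔA. In *Xist* FL it stood at 61.2 and 72.1 CPM without DOX and at 25.1 and 19.0 CPM with DOX (replicates 1 and 2). The *Xist* ΔB+C values were 58.9 and 45.2 CPM without and 25.5 and 14.4 CPM with DOX. The DOX and noDOX libraries did not overlap in either line. The share of all genes whose 2 and 2 libraries lie apart is not given. Here and below, such separation is therefore a description and supports nothing by itself. The *Xist* ΔA groups overlapped, with 29.7 and 25.2 CPM without and 38.6 and 25.9 CPM with DOX. The noDOX level of *Xist* ΔA was thus already near the DOX level of the other lines. The fitted log2 differences were -1.59 ± 0.29 (SE) for *Xist* FL, a 3.02-fold lower level, and -1.38 ± 0.29 for *Xist* ΔB+C, a 2.61-fold lower level. The value for *Xist* ΔA was 0.23 ± 0.29. Bulk RNA cannot tell fewer cells that express a gene from less RNA per cell, and this holds for all values here.

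*T*, *Mixl1* and *Fgf8* had lower means with DOX in the same lines, with a larger spread between replicates, so that none passed the test without a replicate block, and *Gsc* did so only in *Xist* FL. *T*, the Brachyury factor of the streak and early mesoderm, stood at 154 and 93.1 CPM in *Xist* FL noDOX and at 96.3 and 14.0 CPM in *Xist* FL DOX. For *Xist* ΔB+C the values were 128 and 57.2 CPM without and 98.5 and 20.9 CPM with DOX. In both lines DOX replicate 1 was higher than noDOX replicate 2, so the groups overlapped, although each DOX library was below the noDOX library of its own number. *Xist* ΔA held 15.6 and 10.9 CPM without and 21.2 and 12.2 CPM with DOX, below the other 2 lines apart from their DOX replicate 2 libraries, which lay within its range.

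*Mixl1*, a homeobox factor of the streak, went from 24.1 and 8.98 CPM to 10.3 and 2.65 CPM in *Xist* FL and from 14.7 and 5.26 CPM to 8.14 and 3.03 CPM in *Xist* ΔB+C. *Fgf8*, the growth factor made by streak cells, went from 32.3 and 25.2 CPM to 13.3 and 2.33 CPM in *Xist* FL and from 17.4 and 8.85 CPM to 9.67 and 2.59 CPM in *Xist* ΔB+C. Only for *Fgf8* in *Xist* FL were these DOX and noDOX libraries apart. In *Xist* ΔA, *Mixl1* stayed between 1.02 and 1.80 CPM and *Fgf8* between 1.97 and 3.22 CPM in all 4 libraries. *Gsc*, a homeobox factor of the anterior streak, had 9 to 59 reads per library, with 59 and 43 in *Xist* FL noDOX and 30 and 28 in *Xist* FL DOX. Its reads numbered 18 and 11 in *Xist* ΔA noDOX, 26 and 27 in *Xist* ΔA DOX, 18 and 9 in *Xist* ΔB+C noDOX and 14 and 15 in *Xist* ΔB+C DOX.

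The ligand and the Lefty inhibitors did not follow *Eomes*. *Nodal* stood at 115 and 118 CPM in *Xist* FL noDOX and at 122 and 135 CPM in *Xist* FL DOX. The ΔB+C line had 105 and 100.3 CPM without and 114 and 139 CPM with DOX. In both lines the DOX libraries were above the noDOX libraries, which is given as a description only. *Xist* ΔA held 101 and 99.7 CPM without and 101 and 92.9 CPM with DOX, which overlapped. Of all tested genes of the group, *Nodal* varied least, between 92.9 and 139 CPM over the 12 libraries.

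*Lefty1* stood at 55.7 and 79.4 CPM in *Xist* FL noDOX and 62.2 and 115 CPM in *Xist* FL DOX, and at 33.5 and 49.1 CPM against 42.2 and 74.7 CPM in *Xist* ΔB+C. *Lefty2* was 48.5 and 60.6 CPM against 50.8 and 75.3 CPM in *Xist* FL and 40.5 and 43.8 CPM against 47.3 and 65.7 CPM in *Xist* ΔB+C. In *Xist* ΔA, *Lefty1* had 25.04 and 44.6 CPM without and 29.9 and 52.6 CPM with DOX, and *Lefty2* had 13.4 and 16.0 CPM without and 14.3 and 15.9 CPM with DOX. Every DOX library of *Xist* FL and *Xist* ΔB+C was above the noDOX library of its number for both inhibitors, but the groups were apart only for *Lefty2* in *Xist* ΔB+C. *Cer1*, the other secreted inhibitor, had 27 reads in all 12 libraries together, 0 to 7 per library, with 0 reads in 3 libraries, and a count of 0 allows up to 3 reads.

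The co-receptor *Tdgf1* went the way of *Eomes* rather than of its ligand. It stood at 597 and 864 CPM in *Xist* FL noDOX and 449 and 629 CPM in *Xist* FL DOX. The ΔB+C line had 626 and 820 CPM without and 417 and 444 CPM with DOX, which did not overlap. *Xist* ΔA held 463 and 534 CPM without and 505 and 558 CPM with DOX.

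Among the 8 tested genes, 5 (*Eomes*, *T*, *Mixl1*, *Tdgf1* and *Fgf8*) were lower with DOX in both same-numbered pairs of *Xist* FL, and the same 5 in *Xist* ΔB+C. The other 3 (*Nodal*, *Lefty1* and *Lefty2*) were higher in both pairs of both lines. Over all 13191 tested genes, 40.5% were lower and 38% higher in both pairs of *Xist* FL, and 37.5% and 36.2% in *Xist* ΔB+C. In *Xist* ΔA, 5 genes (*Eomes*, *T*, *Lefty1*, *Tdgf1* and *Fgf8*) were higher in both pairs and 1, *Nodal*, was lower, against 32.4% and 33.1% of all genes. By pair, *Eomes* with DOX was at 41.1% and 26.3% of its noDOX level in *Xist* FL and at 43.2% and 31.8% in *Xist* ΔB+C. *Tdgf1* was at 75.2% and 72.8% in *Xist* FL and at 66.6% and 54.2% in *Xist* ΔB+C, a smaller difference than that of *Eomes* in all 4 pairs. For *Fgf8* the percentages were 41.3 and 9.26 in *Xist* FL and 55.6 and 29.3 in *Xist* ΔB+C, and for *T* they were 62.4 and 15.03 and then 77.2 and 36.5. The replicate 2 pair showed the larger difference for these genes in both lines.

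**Figure D2:**
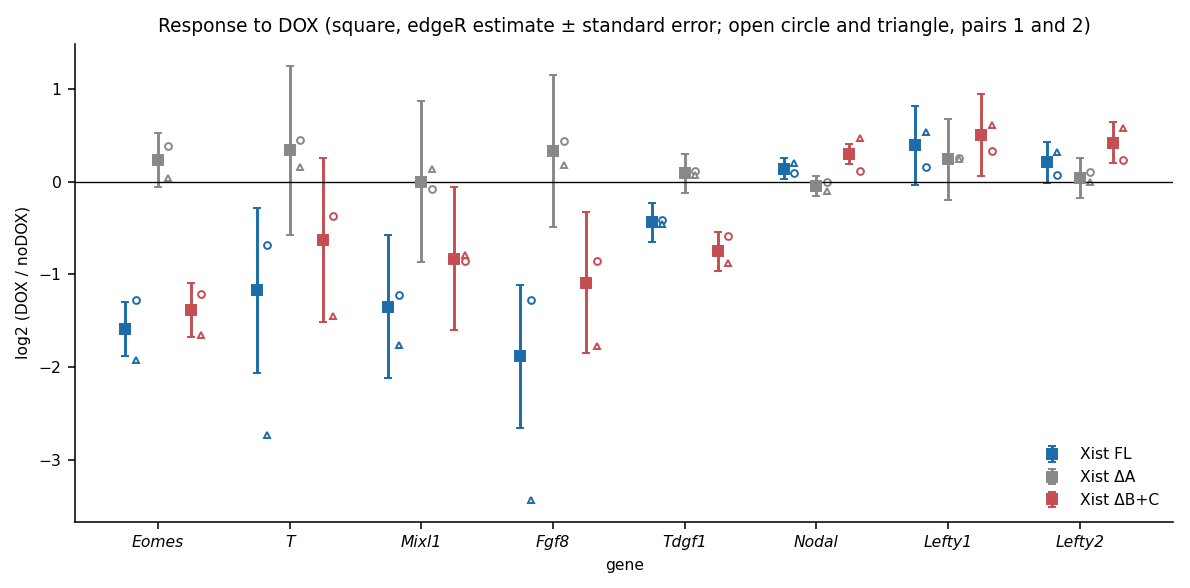
Log2 ratio of DOX to noDOX for the 8 tested genes in each line. Squares are edgeR estimates with SE, and open circles and triangles are the same-numbered pairs 1 and 2; in *Xist* FL and *Xist* ΔB+C the first 5 genes were below 0 and the last 3 above 0 in both pairs.

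With edgeR's quasi-likelihood test across all genes (adjusted p under 0.05 by Benjamini-Hochberg), 1 of the 8 genes, *Eomes*, was called lower with DOX in *Xist* FL and none higher, where 1.09% of all genes were called lower and 0.144% higher. *Eomes* was also the only one called lower in *Xist* ΔB+C, with none higher, against 2.13% and 0.811% of all genes. In *Xist* ΔA none was called in either direction, against 0.00758% higher and 0% lower, and none had an unadjusted p under 0.05. The block left *Xist* ΔA at none, against 0.00758% and 0.0152%. An unadjusted p under 0.05 was also reached by *Fgf8* in *Xist* FL and by *Nodal* and *Tdgf1* in *Xist* ΔB+C. These calls include the gene around which the group was chosen, and nothing is read from them. Adjusted p-values here and below place a gene among all tested genes and are no independent support for the group. The median log2 difference of the 8 genes was -0.80 for *Xist* FL, -0.69 for ΔB+C and 0.16 for ΔA, against medians of all tested genes of -0.01, -0.00 and 0.00.

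The libraries were paired by replicate number, and with the number as a block more of the genes passed the same test. In *Xist* FL, *Mixl1* (log2 difference -1.43, edgeR adjusted p = 0.00194), *Fgf8* (-2.16, adjusted p = 0.0461) and *Tdgf1* (-0.44, adjusted p = 0.0208) then fell besides *Eomes*, and *Lefty1* rose (0.35, adjusted p = 0.0365). That made 4 of 8 lower and 1 of 8 higher, against 8.13% and 5.72% of all genes. *T* did not pass even so (-1.54, adjusted p = 0.145), nor did *Nodal* (0.14, adjusted p = 0.312) or *Lefty2* (0.20, adjusted p = 0.232).

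In *Xist* ΔB+C with the block, *Mixl1* (-0.83, edgeR adjusted p = 0.0243) and *Tdgf1* (-0.73, adjusted p = 0.00103) fell besides *Eomes*. *Nodal* (0.30, adjusted p = 0.0382), *Lefty1* (0.47, adjusted p = 0.00736) and *Lefty2* (0.40, adjusted p = 0.0200) rose. The counts were 3 of 8 in each direction, against 12% lower and 9.89% higher over all genes. *T* (-0.83, adjusted p = 0.363) and *Fgf8* (-1.19, adjusted p = 0.169) did not pass. The low-input library was 1 of the 2 DOX libraries here. Without it, the blocked fit called *Eomes* (-1.15) and *Tdgf1* (-0.61) lower and none of the 8 higher, against 6.16% and 3.97% of all genes. *Lefty1* then had a log2 difference of 0.42 (adjusted p = 0.0624), *Lefty2* of 0.31 (adjusted p = 0.151) and *Nodal* of 0.15 (adjusted p = 0.303). Their higher level with DOX passed the test only with that library included. Without the block, the fitted values of *Tdgf1* were -0.44 ± 0.21 (SE, adjusted p = 0.412) in *Xist* FL and -0.75 ± 0.21 (adjusted p = 0.0997) in *Xist* ΔB+C.

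Leaving out a single library moved these values. For *Eomes* in *Xist* FL the log2 difference lay between -1.81 and -1.41 over the 4 libraries left out in turn, and the call was lost each time. For ΔB+C it lay between -1.86 and -1.03, and the call was kept only without DOX replicate 1. For *T* the values ran from -3.14 to -0.36 in *Xist* FL and from -2.14 to 0.09 in *Xist* ΔB+C.

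Levels of marker genes of other states are given beside these results, and their part in them was not tested. Of all genes, 0.144% were called higher and 1.09% lower with DOX in *Xist* FL without the block, and 0.811% and 2.13% in *Xist* ΔB+C. With the block these shares were 5.72% and 8.13% in *Xist* FL and 9.89% and 12% in *Xist* ΔB+C. Single calls in such short lists are not read as a result about the list. The summed level of 10 pluripotency genes lay between 1998 and 2352 CPM in *Xist* FL noDOX and between 2356 and 2703 CPM in *Xist* FL DOX, between 1965 and 2540 CPM in *Xist* ΔB+C noDOX and between 2034 and 2997 CPM with DOX. None of the 10 was called in a DOX comparison without the block, and with it *Sox2* was higher in both lines and *Zfp42* in ΔB+C. Of 7 genes of the formative and primed epiblast, *Fgf5* (log2 difference -1.48, edgeR adjusted p = 0.0434) and *Lef1* (-0.70, adjusted p = 0.0156) fell with DOX in *Xist* ΔB+C and none was called in *Xist* FL. With the block, *Dnmt3a* and *Pou3f1* were higher and *Lef1* lower in *Xist* FL, and *Dnmt3a* was higher and *Fgf5*, *Otx2* and *Lef1* lower in *Xist* ΔB+C. The list had sums of 1946 to 2431 CPM in *Xist* FL noDOX, 1981 to 2750 with DOX, 1901 to 2329 in *Xist* ΔB+C noDOX and 1631 to 2209 with DOX. The 10 endoderm markers summed to 94.1 to 109.8 CPM in *Xist* FL noDOX and 119 to 155 with DOX, and to 122 to 191 CPM in *Xist* ΔB+C noDOX and 190 to 332 with DOX, with none of the 10 called without the block and *Dab2* higher in ΔB+C with it. Of the 8 trophoblast markers, *Elf5* and *Plac1* were under 1 CPM in every library, and the sum of the list was 23.0 to 59.5 CPM over all libraries, with *Krt7* higher in ΔB+C with the block. *Tfap2c* ran from 6.30 to 31.2 CPM, *Ascl2* from 5.70 to 10.8 CPM and *Cdx2* from 2.70 to 11.7 CPM. The 7 neural markers summed to 174 to 228 CPM in *Xist* FL noDOX and 216 to 235 with DOX, and to 206 to 222 CPM in *Xist* ΔB+C noDOX and 223 to 239 with DOX. None was called without the block. With it, 3 of the 5 tested (*Sox1*, *Pax6* and *Tubb3*) were higher and *Nes* was lower in *Xist* FL, and *Tubb3* was higher and *Nes* and *Zic1* lower in *Xist* ΔB+C. Of the neural markers, *Neurog2* and *Hes5* were under 1 CPM in every library. The 8 fibroblast markers ran from 10.4 to 55.2 CPM in sum, with *Lum*, *Postn* and *S100a4* under 1 CPM throughout. Others of the list were read in every library: *Col1a1* at 2.24 to 38.1 CPM, *Thy1* at 5.19 to 10.3 CPM and *Col1a2* at 2.27 to 6.05 CPM.

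The difference of the DOX response between lines was tested directly. By the RNA FISH counts of the paper, only a part of the cells had a *Xist*-coated X chromosome with DOX. That part differed between the lines, and the values here are not adjusted for it. Between *Xist* ΔB+C and *Xist* FL none of the 8 genes passed (0 of all 13191 genes did, with or without the block), and none had an unadjusted p under 0.05 or was called by DESeq2 or limma-voom. The difference, ΔB+C minus FL, was 0.21 for *Eomes* (95% interval -0.71 to 1.13), -0.31 for *Tdgf1* (-0.99 to 0.37), 0.16 for *Nodal* (-0.18 to 0.49) and 0.21 for *Lefty2* (-0.48 to 0.90). For *T* the interval ran from -2.26 to 3.34 and for *Fgf8* from -1.61 to 3.19, so that a several-fold difference between the lines could not have been seen for these genes.

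Against *Xist* ΔA, the *Eomes* response differed by 1.83 ± 0.41 (SE, ΔA minus FL) and by -1.62 ± 0.41 (ΔB+C minus ΔA). Without the block none of the 8 genes was called in either comparison, against 0% of all genes in either direction for ΔA minus FL, and 0.0455% higher and 0.159% lower for ΔB+C minus ΔA. With the block, *Tdgf1* was called in the second (-0.83, edgeR adjusted p = 0.00912), and *Eomes*, counted but not read as a test, in both, against 1.99% of genes higher and 1.32% lower in the first and 4.23% higher and 5.09% lower in the second. For *Mixl1* the blocked difference, ΔA minus FL, was 1.45 (adjusted p = 0.0644), for *Tdgf1* it was 0.53 (adjusted p = 0.0782) and for *Lefty1* -0.10 (adjusted p = 0.729).

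The lines also differed before DOX, and here *Xist* ΔA stood apart. Without DOX, 4 of the 8 genes were lower in *Xist* ΔA than in *Xist* FL by the edgeR test, where 5.54% of all genes were lower and 4.3% higher, and no gene of the group was higher. *Lefty2*, at 13.4 and 16.0 CPM against 48.5 and 60.6 CPM, was lower by a log2 difference of -1.89 ± 0.23 (SE, adjusted p = 0.00212). *Fgf8* differed by -3.72 ± 0.84 (adjusted p = 0.0273) and *Mixl1* by -3.54 ± 0.86 (adjusted p = 0.0351). *Eomes*, counted but not read as a test, differed by -1.28 ± 0.29. The levels of *Fgf8*, *Mixl1* and *Eomes* were thus 13.2-fold, 11.6-fold and 2.43-fold lower. *T* missed the threshold (-3.22 ± 0.96, adjusted p = 0.0682), as did *Lefty1* (-0.96 ± 0.44, adjusted p = 0.210), *Tdgf1* (-0.55 ± 0.21, adjusted p = 0.140) and *Nodal* (-0.22 ± 0.11, adjusted p = 0.237).

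With the replicate block 7 of 8 were lower in *Xist* ΔA, all but *Nodal* (adjusted p = 0.0893), against 17.2% of all genes, and none higher, against 16.2%. *Eomes* is among the 7, and its call supports nothing. The median log2 difference of the 8 genes was -1.59, against 0.00 over all genes. Only the *Lefty2* call held whichever of the 4 libraries was left out, with values from -2.05 to -1.72 (edgeR adjusted p from 0.00811 to 0.0272). The calls of *Eomes*, *Mixl1* and *Fgf8* were lost each time a library was left out, with values from -1.40 to -1.15, from -4.07 to -2.66 and from -3.88 to -3.53. These comparisons use the *Xist* FL noDOX libraries that also serve the DOX comparison, so they are not independent of it. Among markers, *Lef1* was higher in *Xist* ΔA (0.56, adjusted p = 0.0165), 1 of the 7 formative and primed genes. With the block, 4 of these 7 (*Otx2*, *Pou3f1*, *Lef1* and *Tcf15*) were higher. So were *Pou5f1*, *Sox2*, *Gata4* and *Sox1*, while *Nanog*, *Col4a1*, *Nes*, *Hand1*, *Dcn* and *Thy1* were lower. The formative and primed list summed to 2635 to 2765 CPM in *Xist* ΔA noDOX against 1946 to 2431 in *Xist* FL noDOX, and the pluripotency list to 2260 to 2978 against 1998 to 2352 CPM. The part of these levels in the differences was not tested.

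Between *Xist* ΔB+C and *Xist* FL without DOX none of the 8 genes was called by edgeR, against 0.0227% of all genes higher and 0% lower, and none had an unadjusted p under 0.05. With the block *Lefty1* was lower in *Xist* ΔB+C (-0.72, adjusted p = 0.00724), 1 of 8 against 0.379% of all genes, and none was higher, against 0.614%. The interval of the *Eomes* difference was -1.0 to 0.29 and that of *Tdgf1* -0.49 to 0.46. Against *Xist* ΔA, *Lefty2* was higher in *Xist* ΔB+C by 1.52 ± 0.22 (SE, edgeR adjusted p = 0.00613), 1 of 8 against 3.81% of all genes, and none was lower, against 2.87%. That call was lost without *Xist* ΔA noDOX replicate 1 (1.40, adjusted p = 0.0652). With the block 6 of 8 were higher, all but *Nodal* and *Lefty1*, against 15.2%, and none lower, against 12.8%. *Eomes* is 1 of the 6, counted but not read as a test. The low level of *Lefty2* in *Xist* ΔA was thus seen against both other lines, while *Lefty1*, its neighbour on chromosome 1, was at 33.5 and 49.1 CPM in *Xist* ΔB+C noDOX and 25.04 and 44.6 CPM in *Xist* ΔA noDOX.

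**Figure D3:**
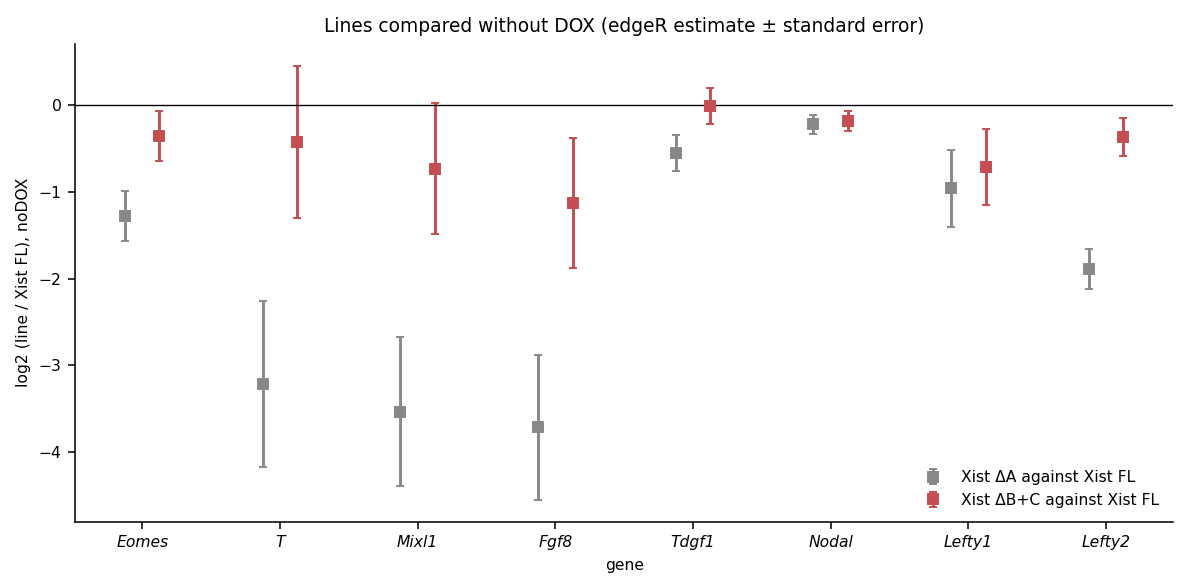
Log2 difference of *Xist* ΔA and of *Xist* ΔB+C from *Xist* FL without DOX for the 8 tested genes, edgeR estimate with SE. *Xist* ΔA was lowest relative to *Xist* FL for *Fgf8* (-3.72), *Mixl1* (-3.54) and *T* (-3.22), and *Nodal* was within 0.22 in both lines.

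The replicate number went with the level of most of these genes. In all 6 groups replicate 2 was below replicate 1 for *T*, *Mixl1* and *Fgf8* and above it for *Lefty1*, *Lefty2* and *Tdgf1*, where 20.7% of all genes were lower in all 6 and 20.7% higher. By edgeR, with the 6 group means in the model, *Mixl1* (-1.39), *T* (-1.38), *Fgf8* (-1.09) and *Eomes* (-0.35) were lower in replicate 2, 4 of 8 against 23.5% of all genes. *Lefty1* (0.74), *Lefty2* (0.32) and *Tdgf1* (0.31) were higher, 3 of 8 against 22.7%. *Nodal* (0.04) was not called. What the replicate numbers stand for is not given.

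The difference between replicates was widest for *T* with DOX: replicate 2 was lower by 2.78 on the log2 scale in *Xist* FL DOX and by 2.24 in *Xist* ΔB+C DOX, against 0.73 and 1.16 in their noDOX groups. *Fgf8* showed values of -2.52 and -1.90 with DOX against -0.36 and -0.98 without. *Eomes* lay between -0.82 and 0.24 over the 6 groups, the narrower range. Of the 10 pluripotency markers, 6 were higher in replicate 2 and none lower, against 22.7% and 23.5% of all genes, among them *Sox2* (0.59), *Nanog* (0.33) and *Pou5f1* (0.19). Other marker lists had calls too. Of the 7 formative and primed genes, 3 were higher and 1 lower, and of the 5 tested neural markers 3 were higher and 1 lower. Of the 6 tested trophoblast markers, 1 was higher and 2 lower. For the 10 endoderm and the 4 tested fibroblast markers, 0 were higher and 2 lower in each list. The part of these markers in the difference between the replicates was not tested.

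**Figure D4:**
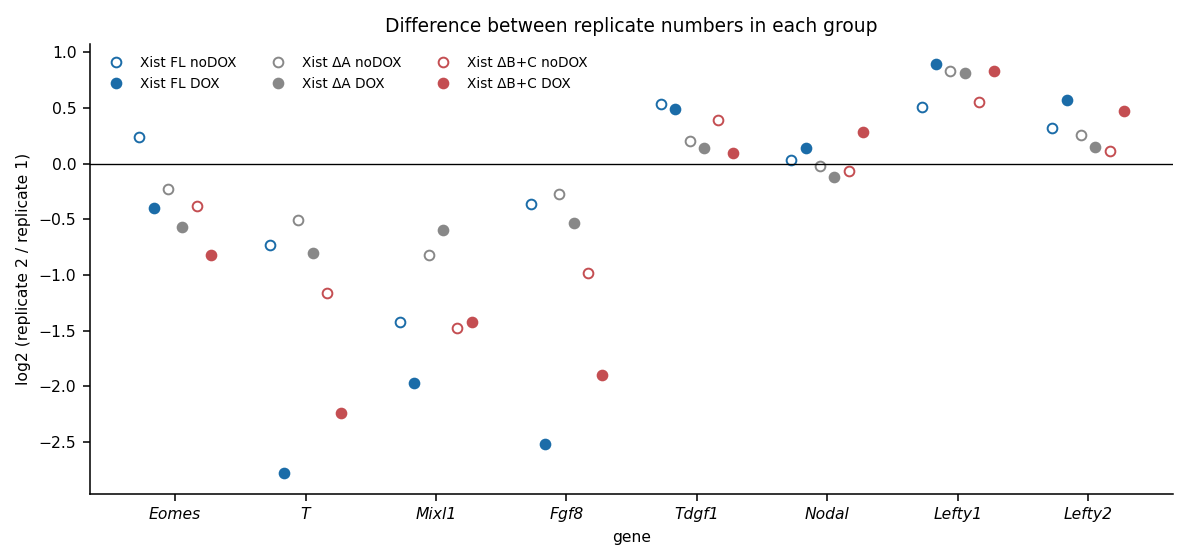
Log2 ratio of replicate 2 to replicate 1 in each of the 6 groups for the 8 tested genes. *T*, *Mixl1* and *Fgf8* were below 0 and *Lefty1*, *Lefty2* and *Tdgf1* above 0 in all 6 groups, with *T* reaching -2.78 in *Xist* FL DOX.

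Over the 12 libraries the genes fell into sets by how their levels varied. The values below are Pearson correlations of log2(CPM + 1), given as a description only, since the libraries share lines and replicate numbers. *T*, *Mixl1* and *Fgf8* had correlations of 0.95 to 0.97 with each other. *Nodal*, *Lefty1* and *Lefty2* had 0.73 to 0.83. *Eomes* had 0.76 with *Fgf8*, 0.66 with *Tdgf1*, 0.64 with *T* and 0.59 with *Mixl1*, against 0.01 with *Lefty2*, -0.25 with *Lefty1* and -0.36 with *Nodal*.

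*Tdgf1* had 0.23 with both *T* and *Mixl1*, so its likeness was to *Eomes* more than to the other streak genes. Within the 8 libraries of *Xist* FL and *Xist* ΔB+C, *Eomes* had 0.88 with *Fgf8*, 0.74 with *T*, 0.73 with *Mixl1* and 0.69 with *Tdgf1*, and -0.72 with *Nodal*, -0.55 with *Lefty2* and -0.42 with *Lefty1*. The ligand and the Lefty inhibitors varied together (0.79 to 0.95) and against the streak factors (-0.49 to -0.79 over all pairs with *T*, *Mixl1* and *Fgf8*). With all 12 libraries those same pairs had 0.01 to 0.62, and *Xist* ΔA was low for most genes of both sets. Over all libraries but the low-input one, with *Xist* ΔA included, the correlation of *Eomes* with *Nodal* was -0.11 and with *Lefty2* 0.21. The values over all 12 were -0.36 and 0.01. The low-input library had the lowest *Eomes* and the highest *Nodal* level of the 12. The correlations within *Xist* FL and *Xist* ΔB+C were not computed without it. No correlation is given over the 6 differences of DOX from noDOX, since the *Xist* ΔA pairs lie apart from the other 4.

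**Figure D5:**
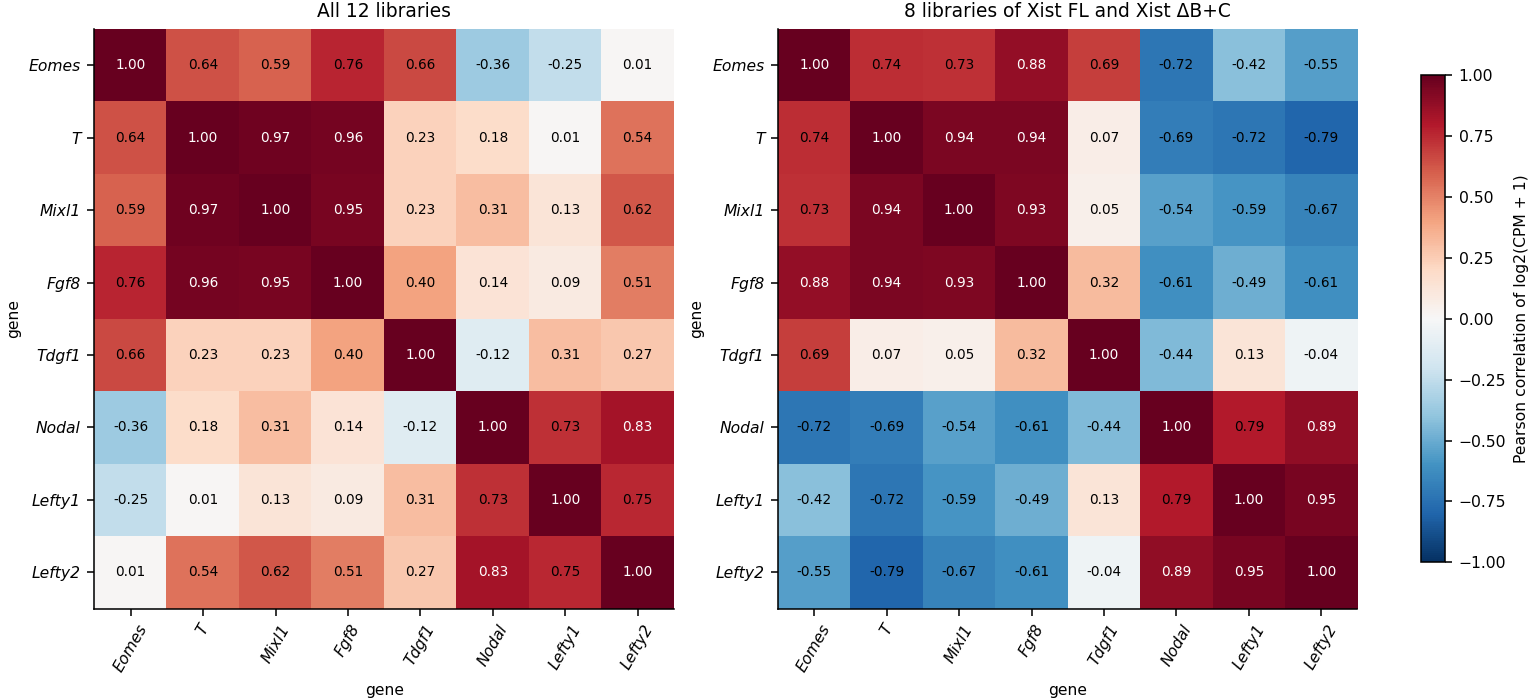
Pearson correlation of log2(CPM + 1) between the 8 tested genes, over all 12 libraries and over the 8 libraries of *Xist* FL and *Xist* ΔB+C. *T*, *Mixl1* and *Fgf8* form a block of at least 0.93 in both panels, and *Nodal*, *Lefty1* and *Lefty2* one of at least 0.73.

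Many genes outside the group were closer to *Eomes* than its own members. Of 13123 other genes compared, 673 had a higher correlation with *Eomes* than *Fgf8* had, 1264 than *Tdgf1*, 1429 than *T* and 1787 than *Mixl1*. The closest were *Irf1* (0.96), an interferon response factor, *Copb2* (0.96), a coat protein of Golgi vesicles, *Ptn* (0.95), a growth factor, and *Pls3* (0.95), an actin-bundling protein encoded on the X chromosome. *H2-Q10* (0.95), *Eml1* (0.94), *Mark1* (0.94) and *Dld* (0.94) came next. These 8 had DOX log2 differences of -1.46 to -0.19 for *Xist* FL, -1.44 to -0.18 for ΔB+C and -0.02 to 0.27 for ΔA. They include genes of no known role in the streak.

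Besides the 10 genes, 49 others of the pathway and of the streak were looked up, of which 39 were tested. With DOX none of the 39 was called by edgeR in *Xist* FL or *Xist* ΔA, in either direction. Of all genes, 0.144% were called higher and 1.09% lower in *Xist* FL, and 0.00758% and 0% in *Xist* ΔA. At such shares an absence of calls among 39 genes says little about the pathway. At an unadjusted p under 0.05, 3 were higher and 2 lower in *Xist* FL and 0 in *Xist* ΔA, and DESeq2 called 2 higher in *Xist* FL. No share over all genes is given for these counts, so nothing is read from them. In the ΔB+C line 1 was called higher and none lower, against 0.811% and 2.13% of all genes. It was *Hhex*, a homeobox factor of anterior endoderm, which rose by 1.26 ± 0.18 (SE, log2, adjusted p = 0.0121). This call was lost when the 4 libraries of the line were used alone, where 0 of these genes were called higher. *Hhex* had 0.68 ± 0.18 (adjusted p = 0.141) in *Xist* FL and -0.11 ± 0.19 in *Xist* ΔA. It went the opposite way from *Eomes*, at levels of 3.22 to 10.3 CPM over all libraries. The median log2 difference in *Xist* FL was 0.02 for 7 tested genes of ligands, processing and receptors, 0.15 for 7 transducers, 0.03 for 9 inhibitors and feedback genes and -0.19 for 16 streak genes, against -0.01 for all genes. The corresponding medians in *Xist* ΔB+C were 0.11, 0.06, 0.13 and -0.16, against -0.00.

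With the replicate block, 5 of the 39 fell and 3 rose in *Xist* FL, against 8.13% and 5.72% of all genes. Among those lower were *Evx1* (-1.74, edgeR adjusted p = 0.0355), *Fst* (-1.11, adjusted p = 0.0126), *Wnt8a* (-0.79, adjusted p = 0.0380) and *Wnt3* (-0.55, adjusted p = 0.00452). *Wnt3* and *Wnt8a* are Wnt ligands of the streak, *Evx1* a streak homeobox factor and *Fst* a secreted binder of activin. *Hhex* (0.67, adjusted p = 0.0251), *Ski* (0.38, adjusted p = 0.0115) and *Smad7* (0.29, adjusted p = 0.0211) were higher, the latter pair being inhibitors of Smad signalling. In *Xist* ΔB+C the block gave 3 higher (*Hhex*, *Tgif2* at 0.27 and *Smad2* at 0.23) and 1 lower (*Wnt3*, -0.33), against 9.89% and 12% of all genes.

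Without DOX, 1 of the 39 was higher and 3 were lower in *Xist* ΔA than in *Xist* FL: *Skil*, a Smad co-repressor, was higher (0.63 ± 0.11 SE, edgeR adjusted p = 0.0112), and *Wnt8a* (-1.75 ± 0.25, adjusted p = 0.00428), the caudal homeobox gene *Cdx1* (-2.76 ± 0.54, adjusted p = 0.0160) and *Drap1* (-0.48 ± 0.08, adjusted p = 0.0108), a repressor that binds Foxh1, were lower. The shares of all genes were 4.3% higher and 5.54% lower. With the block these counts were 10 and 8, against 16.2% and 17.2%. The corresponding differences of *Xist* ΔB+C from *Xist* ΔA were -0.68 for *Skil*, 2.51 for *Cdx1* and 0.63 for *Drap1*, all called, and *Tgif1*, another Smad co-repressor, was lower in *Xist* ΔB+C (-0.54, adjusted p = 0.0263). Of all genes, 3.81% were higher and 2.87% lower in that comparison without the block. With the block 8 were higher and 6 lower, against 15.2% and 12.8% of all genes. Between *Xist* ΔB+C and *Xist* FL none of the 39 was called without the block (1 higher and 1 lower at an unadjusted p under 0.05), and with it *Apela* was higher and *Wnt8a* lower. The shares of all genes were 0.0227% higher and 0% lower without the block, and 0.614% and 0.379% with it. Of the 39, 7 were higher and 16 lower in replicate 2 than in replicate 1, against 22.7% and 23.5% of all genes, among the latter *Sp5* (-1.48), *Evx1* (-1.02) and *Wnt3* (-0.93), which moved with *T* rather than with *Lefty1*.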

How the data were processed

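RNA-seq was read in 12 libraries, 2 for each of 3 lines with and without DOX. Per the labels and the methods, the authors aligned reads to mm10 with TopHat2 (2.1.0), counted read pairs per gene with featureCounts (1.5.1) and deposited raw counts. The counting options given (-C and -p) set no strand, and the default of featureCounts is to count without it. Removal of PCR duplicates is not given in the sources used here. Groups were taken from the labels, also where a name of a deposited table differed from them.

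CPM were computed with TMM factors from expressed autosomal genes (0.978 to 1.02). Genes that reached 1 CPM in 6 or more libraries (13191, of which 12721 autosomal) were tested with edgeR (4.0.16, R 4.3.3), robust quasi-likelihood on 6 group means, with Benjamini-Hochberg adjustment over all tested genes and a threshold of 0.05. SE, intervals and p-values rest on 2 libraries per group. Correlations used a pseudocount of 1. The tests were tried on simulated data. Promoter sequences came from RefSeq.

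Replicate numbers paired the libraries: the differences of replicate 2 from replicate 1 correlated over autosomal genes in all 15 pairs of groups (0.405 to 0.838, mean 0.634; threshold 0.1). The number as an additive term is called the replicate block.

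The 10 genes, the lists and the motifs were chosen with earlier results of these data known, so adjusted p-values place a gene among all genes and are no independent support. All 10 genes are named, with those of the other 49 pathway genes past the threshold, apart from a gene not reported here, and the 8 genes most correlated with *Eomes*. Alternatives were TMM factors from all genes, library totals, DESeq2 (1.42.0), limma-voom (3.58.1), 2 other filters, the block, each line alone, Spearman correlation, each library left out, and, added after seeing the data, the block without the low-input library.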

Additional observations from a re-analysis of the deposited data

Results flagged for a closer look

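The difference of the DOX response of *Xist* ΔB+C from that of *Xist* ΔA was -0.83 on the log2 scale for *Tdgf1* and passed the edgeR threshold with the replicate block (without it the adjusted p was 0.313). For *Eomes* the blocked difference of *Xist* ΔA from *Xist* FL was 1.85 and that of *Xist* ΔB+C from *Xist* ΔA was -1.62. These 2 values are a description and not a test, since the group was chosen around *Eomes* with its values known. The noDOX level of *Eomes* was lower in *Xist* ΔA than in *Xist* FL (27.4 ± 3.15 against 66.6 ± 7.71 CPM, SD, n = 2). The comparisons share the *Xist* ΔA libraries.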

How the results depend on the processing

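Counts of the 8 genes called changed with the replicate block and with several other settings, among them the filter and single libraries left out. Called lower with DOX in *Xist* FL were 1, 4 with the block, 0 with no filter on low counts, 0 from the 4 libraries of the line alone and 0 to 0 with a library left out; called higher were 0, and 1 with the block. In *Xist* ΔB+C 1 was lower, 3 with the block, 2 with DESeq2, 2 with the block but no low-input library, 0 with library totals, no filter or the line alone, and 0 to 1 with a library left out; 0 were higher, and 3 with the block. For the response of *Xist* ΔA against *Xist* FL 1 was higher with DESeq2 or the block, and of *Xist* ΔB+C against *Xist* ΔA 1 was lower with DESeq2 and 2 with the block. Without DOX, *Xist* ΔA was lower than *Xist* FL for 4, 7 with the block and 1 to 1 with a library left out, and the *Mixl1* call was lost with limma-voom (adjusted p = 0.0618) and no filter (0.0942) and the *Fgf8* call with no filter (0.0811); *Xist* ΔB+C against *Xist* FL gave 1 lower with the block; *Xist* ΔB+C against *Xist* ΔA gave 1 higher, 5 with DESeq2, 6 with the block and 0 to 1 with a library left out. In replicate 2, 4 were lower, and 2 with no filter.

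Of the other pathway genes, with DOX in *Xist* FL 2 (DESeq2) and 3 (block) were higher and 5 (block) lower; in *Xist* ΔB+C 3 (block), 0 (line alone) and 0 to 1 (a library left out) were higher and 1 (block) lower. Without DOX, *Xist* ΔA against *Xist* FL gave 2 higher with library totals, DESeq2 or limma-voom, 10 with the block, 0 to 1 with a library left out, and 5 (DESeq2), 8 (block) and 1 to 2 (left out) lower. *Xist* ΔB+C against *Xist* FL gave 1 higher (block) and 1 lower (DESeq2, block), and against *Xist* ΔA 4 (DESeq2), 8 (block) and 1 to 1 (left out) higher and 6 (block) and 0 to 1 (left out) lower. The cause of these changes was not tested.

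Signs turned only for differences not called without the block. *Lefty1* with DOX in *Xist* FL and *Mixl1* with DOX in *Xist* ΔB+C, called with the block, were among them when a library was left out without the block. The *Mixl1* difference in *Xist* ΔA became 0.002565 with TMM factors from all genes, 0.00598 with DESeq2, 0.02 with limma-voom, 0.0001339 with no filter and 0.01 with the block. The Spearman correlation of *Lefty2* with *Eomes* was -0.29. With a library left out, the DOX difference was *Lefty1* -0.12 to 0.77, *Lefty2* -0.10 to 0.47 in *Xist* FL, then *Eomes* -0.08 to 0.49, *T* -0.12 to 0.68, *Mixl1* -0.35 to 0.48, *Nodal* -0.11 to 0.006009, *Lefty1* -0.22 to 0.72, *Lefty2* -0.08 to 0.18, *Tdgf1* -0.005508 to 0.20 in *Xist* ΔA, then *T* -2.14 to 0.09, *Mixl1* -1.72 to 0.09 in *Xist* ΔB+C. The response, ΔB+C minus FL, was *Eomes* -0.26 to 0.56, *T* -0.98 to 2.52, *Mixl1* -0.36 to 1.81, *Lefty1* -0.36 to 0.62, *Lefty2* -0.04 to 0.53, *Fgf8* -0.46 to 2.53. For ΔA minus FL and ΔB+C minus ΔA, it was *Lefty1* -0.61 to 0.36, *Lefty2* -0.42 to 0.15 in the first, then *Mixl1* -1.71 to 0.10, *Lefty1* -0.22 to 0.72 in the second. Without DOX, it was *T* -1.11 to 0.04, *Mixl1* -1.65 to 0.14, *Tdgf1* -0.26 to 0.28 ΔB+C minus FL, then *Nodal* -0.002503 to 0.05, *Lefty1* -0.11 to 0.72 ΔB+C minus ΔA. Leaving a library out leaves its group with 1 sample, which is assumed to vary like the others. All other alternatives kept the direction of every named gene of the group.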
